A study of Homo sapiens with 12 samples.

Results

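ZNF143, ZNF22, SSH1, PTPN22, LBH and NEK3 are 6 genes, of 11963 measured, whose levels in K562 cells set CXXC5 knockdown and empty vector arrays apart from scrambled shRNA arrays. They are called mirror genes here, because in most of them overexpression fell on the side of scrambled shRNA and knockdown on the side of empty vector. They were picked from these same arrays for that pattern, so every difference of knockdown or empty vector from the other 2 groups describes the choice and carries no test. Overexpression minus scrambled shRNA rests on the same scrambled shRNA arrays that chose the members and is likewise given with no test, so that knockdown minus empty vector is the comparison tested for them, on arrays that also took part in the choice. All 12 probe sets paired with these symbols alone were used, out of 22215 that are not controls.

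K562, an established human leukemia cell line, was profiled on 12 Affymetrix 3' expression arrays, 3 in each of 4 groups. In the overexpression group human CXXC5 in the pEGFP-C2 plasmid was nucleofected, which is a transient transfection. In the knockdown group CXXC5 shRNA in the pLKO vector was delivered by stable lentiviral infection; 2 shRNA clones are named, without saying which array carries which. The empty vector group received pEGFP-C2 alone by nucleofection, and the scrambled shRNA group a lentiviral pLKO control. Cells of all groups were kept without serum in 100 ng/ml recombinant Wnt3a, and RNA was taken at 8 h, so no group lacks Wnt3a. Each control thus shares its delivery with 1 CXXC5 group: nucleofection with overexpression, lentivirus with knockdown. CXXC5 itself had 0 probe sets here, so its level was not analysed and the names of the groups could not be checked against it. Nothing in the sources says that the replicates were grown separately; each p-value therefore reflects the scatter among these arrays, part or all of which may be technical.

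As background, the members come from different parts of cell biology. ZNF143 (also Staf) is a C2H2 zinc finger activator of small nuclear RNA promoters and of many protein-coding promoters, and it is found at chromatin loop anchors. ZNF22 is a C2H2 zinc finger protein, studied in mouse tooth development, and LBH is a small transcription cofactor named from limb bud and heart. SSH1 is a slingshot phosphatase that activates the actin-severing protein cofilin, PTPN22 is a tyrosine phosphatase that restrains antigen receptor signalling in lymphocytes, and NEK3 is a NIMA-related kinase linked to prolactin receptor signalling. CXXC5, the protein manipulated, carries a CXXC zinc finger that recognises unmethylated CpG and acts as a negative regulator of the Wnt pathway.

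Values are log2 expression per probe set, so a difference of 1 is a factor of 2. Array medians lay between 6.64 and 6.70. In scrambled shRNA replicate 3 the 3' signal of the GAPDH control exceeded the 5' signal by 0.87 log2, against 0.227 to 0.335 in the other 11 arrays, so the members' differences from scrambled shRNA, or between the sides, are also given without it. For the ISGF3A control this excess was 5.255 to 5.51 in the scrambled shRNA arrays, above the 4.585 to 5.152 of all other arrays. Leaving out replicate 3 does not remove that, and its part in the differences was not tested. The 8 measured erythroid markers of K562 lay between the 58.5th percentile of mean level (EPOR, the erythropoietin receptor) and the 99.3rd (TFRC), with the embryonic globin HBZ at the 97.8th and the regulator GATA1 at the 86.8th. Of 11 lymphoid markers, MS4A1 and CD2 stood at the 16.7th and 15.4th percentile and CD3D at the 91.4th, and of 7 fibroblast markers LUM stood at the 0.518th and FN1 at the 91.2nd.

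ZNF143 was the only member of the 6 that was low, not high, in knockdown and empty vector arrays. Its probe set 221873_at read 9.77, 9.92 and 9.90 in overexpression arrays and 8.94, 8.68 and 8.74 in knockdown arrays, against 8.80, 8.77 and 8.76 in empty vector arrays and 9.95, 9.91 and 9.70 in scrambled shRNA arrays. The lowest overexpression or scrambled shRNA value, 9.70, was above the highest knockdown or empty vector value, 8.94. The knockdown and empty vector mean was lower than the overexpression and scrambled shRNA mean by 1.07 log2 (a difference of -1.07, SE 0.0593), a factor of 2.11. Without scrambled shRNA replicate 3 the difference was -1.11. Within each side the groups lay close together. Knockdown minus empty vector was 0.01 (95% interval -0.17 to 0.19, adjusted p = 0.957 by limma), and overexpression minus scrambled shRNA was 0.01 (SE 0.0838), or -0.07 without scrambled shRNA replicate 3.

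ZNF22 showed the reverse picture at nearly the same level and size. Its brighter probe set, 218005_at, read 9.01, 8.77 and 8.79 in overexpression and 9.96, 9.90 and 9.99 in knockdown, against 9.93, 9.80 and 9.78 in empty vector and 8.73, 8.75 and 8.65 in scrambled shRNA arrays. All 6 knockdown and empty vector arrays were above all 6 others. The difference between these sides was 1.11 log2 (SE 0.0521), a factor of 2.16. Both control groups, which carry no CXXC5 construct, differed by 1.13 (empty vector minus scrambled shRNA), close to the 1.24 of knockdown minus scrambled shRNA, or 1.10 and 1.21 without scrambled shRNA replicate 3. Knockdown minus empty vector was 0.11 (95% interval -0.05 to 0.27, adjusted p = 0.385 by limma), and the second probe set had the other sign, -0.17 (SE 0.0783). Overexpression minus scrambled shRNA was 0.15 (SE 0.0737), or 0.12 without scrambled shRNA replicate 3.

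LBH, a transcription cofactor, was graded rather than split into equal sides. It read 7.11, 6.67 and 6.82 in overexpression and 7.63, 7.44 and 7.75 in knockdown, against 7.40, 7.37 and 7.20 in empty vector and 6.41, 6.30 and 6.61 in scrambled shRNA arrays. The 4 groups did not overlap, in the order knockdown, empty vector, overexpression and scrambled shRNA. The sides differed by 0.81 log2 (SE 0.0857), or by 0.86 without scrambled shRNA replicate 3. Overexpression minus scrambled shRNA was 0.43 (SE 0.121), and between 0.30 and 0.53 without any single array. Knockdown minus empty vector was 0.28 (95% interval 0.01 to 0.54, adjusted p = 0.197 by limma). LBH has 1 probe set, so no second reading was at hand.

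**Figure D1:**
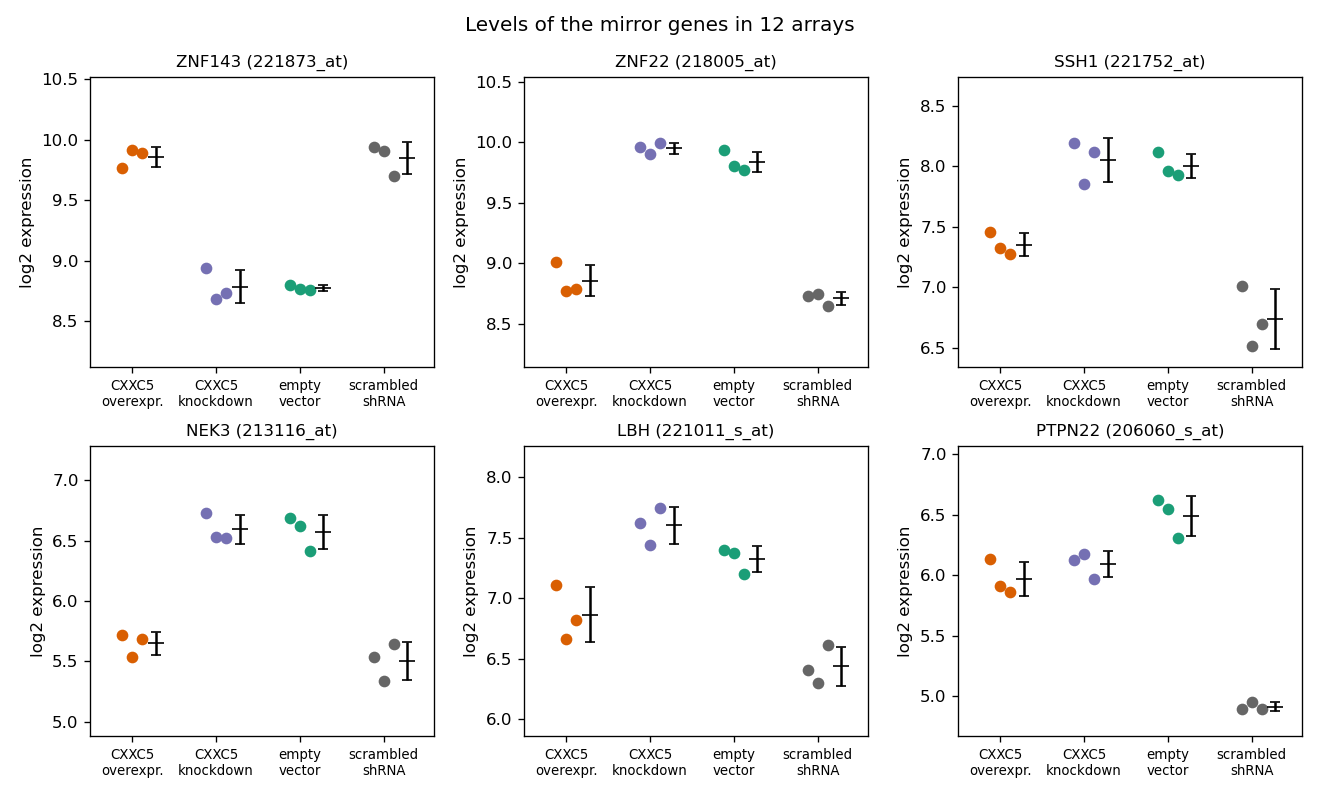
Log2 expression of the 6 mirror genes at the brighter or only probe set of each (y axis) in overexpression, knockdown, empty vector and scrambled shRNA arrays (x axis); points are single arrays and the bar beside them is the mean ± SD (n = 3). ZNF143 is near 8.8 in knockdown and empty vector and near 9.9 in the other groups, ZNF22 and NEK3 are the other way round, and PTPN22 is low in scrambled shRNA alone.

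SSH1, the cofilin phosphatase, was highest in knockdown and empty vector arrays and lowest with scrambled shRNA, with overexpression between. Probe set 221752_at read 7.46, 7.33 and 7.28 in overexpression and 8.19, 7.85 and 8.12 in knockdown, against 8.12, 7.96 and 7.93 in empty vector and 7.01, 6.52 and 6.69 in scrambled shRNA arrays. Knockdown and empty vector arrays overlapped each other, and neither overlapped overexpression or scrambled shRNA. The sides differed by 0.98 log2 (SE 0.0862). Overexpression minus scrambled shRNA was 0.61 (SE 0.122, 1.53-fold), with every overexpression array above every scrambled shRNA array, or 0.59 without scrambled shRNA replicate 3. The second SSH1 probe set, 221753_at, gave a smaller value in that comparison, 0.19 (SE 0.12). Knockdown minus empty vector was 0.05 (95% interval -0.21 to 0.32, adjusted p = 0.846 by limma).

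NEK3, the NIMA-related kinase, split cleanly. Probe set 213116_at read 5.72, 5.54 and 5.69 in overexpression and 6.73, 6.53 and 6.52 in knockdown, against 6.68, 6.62 and 6.42 in empty vector and 5.54, 5.33 and 5.65 in scrambled shRNA arrays. No knockdown or empty vector array overlapped the other groups, and the sides differed by 1.01 log2 (SE 0.0697), a factor of 2.01. Knockdown minus empty vector was 0.02 (95% interval -0.19 to 0.24, adjusted p = 0.933 by limma), and overexpression minus scrambled shRNA was 0.14 (SE 0.0986), or 0.21 without scrambled shRNA replicate 3. The second probe set, 211089_s_at, turned both signs, at -0.23 (SE 0.127) in knockdown minus empty vector and -0.23 in overexpression minus scrambled shRNA.

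PTPN22, the lymphocyte phosphatase, departed from the pattern. Probe set 206060_s_at read 6.13, 5.91 and 5.87 in overexpression and 6.13, 6.18 and 5.97 in knockdown, against 6.62, 6.55 and 6.31 in empty vector and 4.89, 4.96 and 4.89 in scrambled shRNA arrays. Overexpression and knockdown overlapped, empty vector was above both, and scrambled shRNA stood far below all. The sides differed by 0.85 log2 (SE 0.0669), a value that mixes these unequal groups. Overexpression minus scrambled shRNA was 1.06 log2 (SE 0.0946, 2.08-fold), nearly the size of knockdown minus scrambled shRNA, 1.18, and it was 1.05 without scrambled shRNA replicate 3; PTPN22 was chosen for its difference from these scrambled shRNA arrays. Knockdown was lower than empty vector by 0.40 (a difference of -0.40, SE 0.0946, adjusted p = 0.0355 by limma), a call that ended without empty vector replicate 1 (-0.33) or 2 (-0.37), without overexpression replicate 2 (-0.40, adjusted p = 0.0506) and without knockdown replicate 1 (-0.42), 2 (-0.44) or 3 (-0.34), with adjusted p up to 0.138 by limma. In the dim second probe set, 208010_s_at, knockdown minus empty vector was -0.31 (SE 0.0803) and overexpression minus scrambled shRNA 0.31. Markers of other cells did not move as one. Of 11 lymphoid markers, 2 were higher and 2 lower in overexpression than in scrambled shRNA, where 8.16% and 9.85% of all genes were. In knockdown 0 were higher and 2 lower than in scrambled shRNA, where 8.79% and 5.22% of all genes were. Their summed linear level, of which CD3D was the largest term, was 2736 to 3192 in overexpression and 2355 to 2376 in knockdown, against 2313 to 2356 in empty vector and 2629 to 3234 in scrambled shRNA arrays. The sum of 7 fibroblast markers, of which FN1 was the largest term, was 1595 to 1669 in overexpression and 2443 to 2488 in knockdown, against 2123 to 2155 in empty vector and 3577 to 3729 in scrambled shRNA arrays. The erythroid sum, of which TFRC and HBZ were the largest terms, was 22060 to 22410 in overexpression and 21210 to 21600 in knockdown, against 19800 to 20280 in empty vector and 27360 to 28200 in scrambled shRNA arrays, while GATA1 averaged 10.33 in overexpression and 10.50 in knockdown, against 10.62 in empty vector and 10.03 in scrambled shRNA arrays. The part of these markers in the PTPN22 values was not tested.

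Counted over the members, knockdown minus empty vector called 1 of 6 (PTPN22, lower) at an adjusted p under 0.05, where 4.54% of all 11963 genes were called (3.02% higher and 1.52% lower). Knockdown was lentiviral and empty vector nucleofected, so delivery and CXXC5 shRNA cannot be told apart here, and the same holds for overexpression minus scrambled shRNA. The median size of the members' differences in knockdown minus empty vector was 0.08, against 0.11 over all genes. Both groups took part in the choice, which favours genes whose knockdown and empty vector levels lie together. The count and the small median therefore partly describe that choice. A p that misses the threshold does not show equal levels: for the other 5 members the upper ends of the intervals lay between 0.19 (ZNF143) and 0.54 (LBH) log2.

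**Figure D2:**
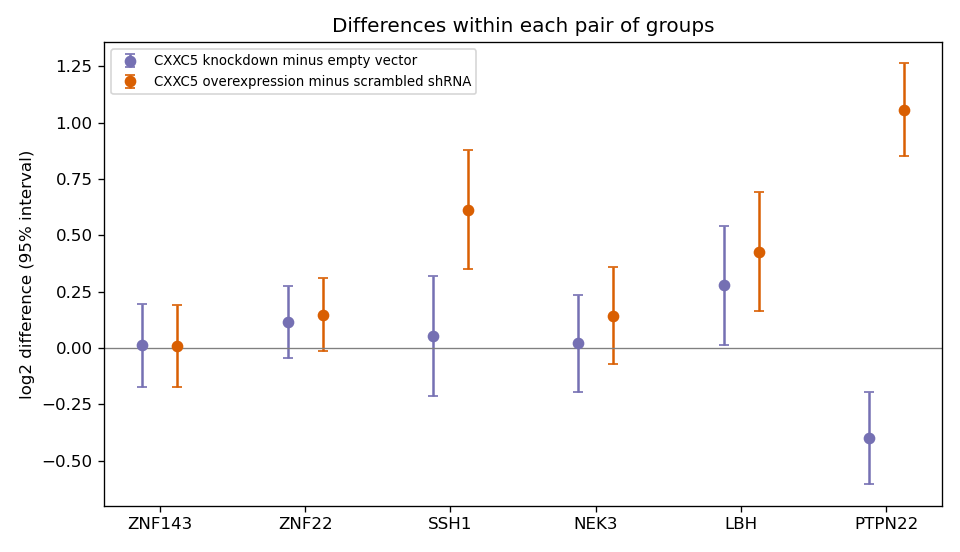
Log2 difference (y axis) of knockdown minus empty vector and of overexpression minus scrambled shRNA for each mirror gene (x axis); points are the limma estimates and bars their 95% intervals, over 12 arrays, and the second comparison is a description since its arrays chose the genes. Both intervals include 0 for ZNF143, ZNF22 and NEK3, while PTPN22 stands at -0.40 and 1.06.

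The contrasts that use the values behind the choice of the members are given for the record and support nothing. All 6 members were called in knockdown minus scrambled shRNA (14.0% of all genes), in empty vector minus scrambled shRNA (31.5%, of which 15.3% were higher and 16.2% lower) and in overexpression minus empty vector (6.98%), and 5 of 6 in overexpression minus knockdown (15.3%), PTPN22 being the exception at -0.12. In overexpression minus scrambled shRNA 3 of 6 passed the same threshold (SSH1, PTPN22 and LBH, all higher), where 18.0% of all genes did (8.16% higher and 9.85% lower). Arrays of knockdown and empty vector did not overlap those of overexpression and scrambled shRNA in 5 of 6 members, where 7.67% of all genes met this, 4.81% with knockdown and empty vector higher and 2.86% with them lower. In all, 307 genes (2.57%) were called the same way against both scrambled shRNA and overexpression by knockdown and by empty vector. By size of the difference between sides, ZNF22 ranked 19th, ZNF143 22nd, NEK3 29th, SSH1 30th, PTPN22 40th and LBH 44th of 11963 genes.

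With 4 groups of equal size, the variation between group means divides into 3 independent parts, which shows how pure the pattern was in each member. The part that sets knockdown and empty vector against overexpression and scrambled shRNA held 99.99% of the between-group sum of squares for ZNF143, 98.97% for NEK3, 98.6% for ZNF22, 83.5% for SSH1, 83.5% for LBH and 53.1% for PTPN22, against a median of 32.1% over all genes. These shares describe the choice of the members. The part that sets lentiviral against nucleofected groups held 39.0% for PTPN22 and at most 6.86% for the other 5 members, against a median of 42.4% over all genes. The part that sets both CXXC5 groups against both controls held 15.8% for LBH, 9.62% for SSH1, 7.92% for PTPN22 and at most 1.38% for the other 3, against a median of 7.77% over all genes.

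**Figure D3:**
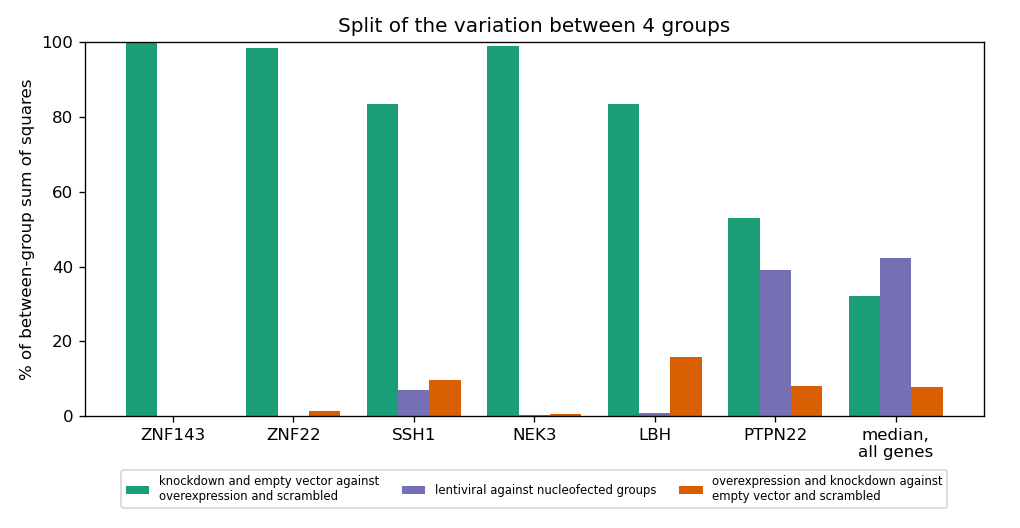
Percent of the between-group sum of squares (y axis) on each of 3 independent contrasts of the 4 groups, for each mirror gene and as medians over 11963 genes, which need not add up to 100 (x axis). ZNF143, ZNF22 and NEK3 lie almost wholly on the first contrast, and PTPN22 divides between the first, 53.1%, and the delivery contrast, 39.0%.

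Second probe sets read the same genes in the same arrays, so they bear on the reading of each gene and not on the conditions. For ZNF22, 218006_s_at, at a mean of 8.34, gave a difference between sides of 1.10, against 1.11 for the brighter probe set; its overexpression minus scrambled shRNA was 0.38, against 0.15, and its knockdown minus empty vector -0.17, against 0.11. For SSH1, 221753_at gave a difference between sides of 0.71, against 0.98, and for NEK3, 211089_s_at gave 0.78, against 1.01. The order of the sides was thus the same in both probe sets of these 3 genes, all with knockdown and empty vector higher. For PTPN22, the dim 208010_s_at (mean 3.14, the 5.42nd percentile) gave 0.37 with empty vector highest and scrambled shRNA lowest, while 208011_at (mean 2.86) gave -0.02. For ZNF143 the readings disagreed: 206428_s_at, at a mean of 4.09 and the 14.7th percentile of probe sets, gave -0.09 (SE 0.095), against -1.07 at 221873_at, which lay at the 80.6th percentile. ZNF143 therefore rests on 1 probe set.

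**Figure D4:**
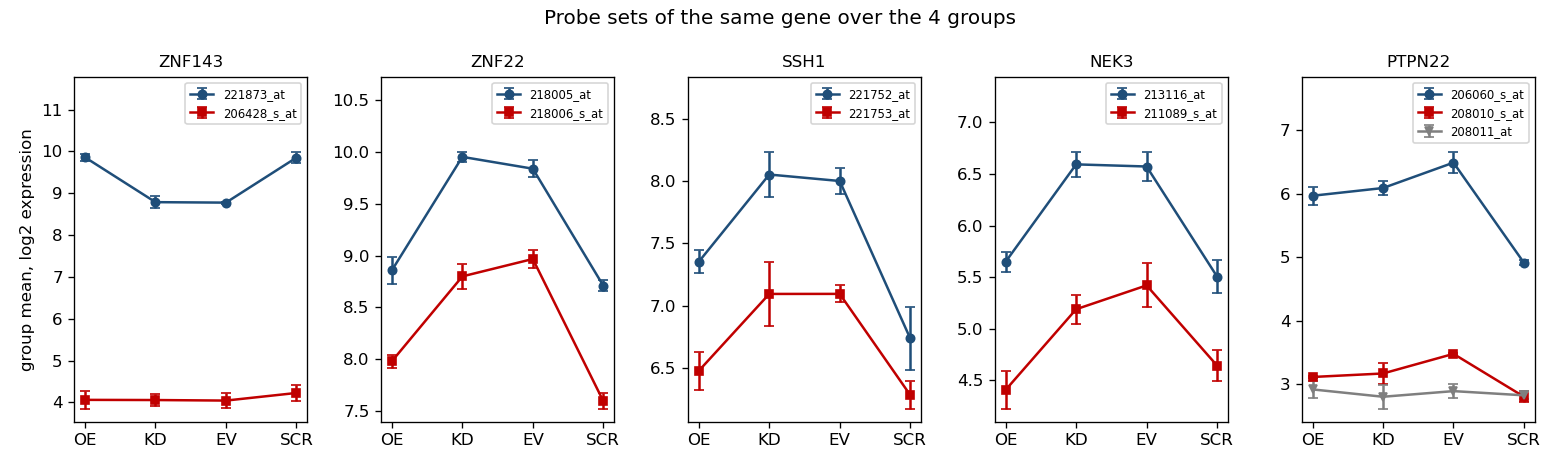
Group mean of log2 expression ± SD (n = 3, y axis) at every probe set of the 5 members that have more than 1, over overexpression (OE), knockdown (KD), empty vector (EV) and scrambled shRNA (SCR) arrays (x axis). Both probe sets of ZNF22, SSH1 and NEK3 peak in knockdown and empty vector, the dim ZNF143 probe set stays near 4.1, and the dimmest PTPN22 probe set near 2.9.

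The promoters of 4 members are shown because CXXC5 recognises CpG: ZNF143 and ZNF22, which moved in opposite directions, and SSH1 and PTPN22, which hold the most and the fewest CG pairs. Each is 300 bases, from 250 before to 50 after the start taken by the promoter table built from RefSeq (GRCh38.p14), written 5′ to 3′ on the gene's strand with every CG in capitals. The table does not name the transcript; its start lies inside the outermost annotated end of the gene for PTPN22 and NEK3 and at that end for the other 4.
ZNF143, chr11:9460762-9461061, plus strand: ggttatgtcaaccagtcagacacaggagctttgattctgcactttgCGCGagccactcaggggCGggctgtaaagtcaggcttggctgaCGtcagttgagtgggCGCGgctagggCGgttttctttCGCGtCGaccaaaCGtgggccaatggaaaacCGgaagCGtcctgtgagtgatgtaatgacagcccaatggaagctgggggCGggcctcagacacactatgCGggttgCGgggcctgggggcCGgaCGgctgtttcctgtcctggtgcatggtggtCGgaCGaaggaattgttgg
ZNF22, chr10:45000673-45000972, plus strand: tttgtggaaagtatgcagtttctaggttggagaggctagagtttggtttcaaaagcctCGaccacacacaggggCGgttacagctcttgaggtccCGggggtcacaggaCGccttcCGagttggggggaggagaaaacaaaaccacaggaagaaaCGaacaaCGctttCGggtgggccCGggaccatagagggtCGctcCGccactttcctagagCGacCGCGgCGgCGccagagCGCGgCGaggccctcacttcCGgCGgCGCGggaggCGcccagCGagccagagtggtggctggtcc
SSH1, chr12:108857534-108857833, minus strand: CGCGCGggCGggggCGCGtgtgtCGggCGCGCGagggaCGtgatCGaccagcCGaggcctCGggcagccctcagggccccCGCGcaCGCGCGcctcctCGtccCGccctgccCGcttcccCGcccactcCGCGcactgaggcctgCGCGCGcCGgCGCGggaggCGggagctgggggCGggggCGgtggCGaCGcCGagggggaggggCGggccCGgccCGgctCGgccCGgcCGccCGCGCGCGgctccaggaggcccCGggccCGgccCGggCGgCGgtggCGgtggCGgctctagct
PTPN22, chr1:113871663-113871962, minus strand: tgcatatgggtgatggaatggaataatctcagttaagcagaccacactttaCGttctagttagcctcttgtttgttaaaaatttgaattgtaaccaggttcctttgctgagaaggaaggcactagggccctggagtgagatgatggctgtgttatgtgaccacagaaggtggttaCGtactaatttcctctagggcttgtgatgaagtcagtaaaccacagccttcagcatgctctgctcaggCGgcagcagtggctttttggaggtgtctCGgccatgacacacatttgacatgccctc
The number of CG pairs was 20 for ZNF143, 25 for ZNF22, 54 for SSH1, 4 for PTPN22, 36 for LBH and 21 for NEK3, against a median of 14 over 35116 promoters. As many as the 54 of SSH1 were found in 0.464% of promoters, and as many as the 4 of PTPN22 in 75.5%. ZNF143 and ZNF22 thus had similar numbers of CG pairs. On both strands, the ZNF143 core ACTACAA (in 2.77% of promoters), the AP-1 motif TGANTCA (7.71%), the E-box CACGTG (7.26%) and the metal response core TGCACNC (12.1%) had 0 matches in all 6 windows. The metal response core TGCGCNC, which 20.0% of promoters hold, had 1 match, in SSH1, starting 107 bases before the annotated start. A match or its absence describes these letters only.

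Genes related to the members by function were then read in the same fit. Of their calls given below in knockdown or overexpression minus scrambled shRNA, those of SNAPC2, PTPN1 and SSH3 ended without scrambled shRNA replicate 3, and the others did not. Of 18 measured partners of ZNF143 and cohesin genes, 2 were higher and 2 lower in knockdown than in scrambled shRNA, where 8.79% and 5.22% of all genes were. ZNF76, the closest relative of ZNF143, had the same direction as ZNF143 at a smaller size. It averaged 8.25 ± 0.08 in overexpression and 7.83 ± 0.08 in knockdown, against 7.81 ± 0.06 in empty vector and 8.18 ± 0.05 in scrambled shRNA arrays (SD, n = 3). ZNF76 fell by 0.35 in knockdown against scrambled shRNA (SE 0.0645, adjusted p = 0.00359 by limma) and rose by 0.45 in overexpression against empty vector (adjusted p = 0.00142 by limma), with 0.02 in knockdown minus empty vector and 0.08 in overexpression minus scrambled shRNA, neither past the threshold. ZNF76 has 1 probe set.

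Further ZNF143 partners are given with the same comparisons, which share arrays with one another. CTCF, the insulator protein, rose by 0.41 in knockdown against scrambled shRNA (adjusted p = 0.00155 by limma) and by 0.35 in overexpression against scrambled shRNA (adjusted p = 0.00463 by limma), but it was higher still in empty vector against scrambled shRNA, by 0.53 (adjusted p = 0.000142 by limma), so scrambled shRNA was the lowest of the 4 groups. SNAPC4, a subunit of the complex that activates small nuclear RNA genes, was lower in knockdown than in empty vector, at -0.45 (adjusted p = 0.00442 by limma), with its other probe set at -0.24. Against scrambled shRNA it stood at 0.01 in knockdown and at 0.46 in empty vector, so empty vector was the highest of the 4 groups. SNAPC2, another subunit, stood at -0.44 in knockdown minus scrambled shRNA and at -0.37 in overexpression minus scrambled shRNA, with empty vector minus scrambled shRNA at -0.65; the first call ended without knockdown replicate 2 or 3 or scrambled shRNA replicate 2 or 3 (-0.38 to -0.44), and the second under 9 of 21 alternatives. In the pairs, 0 partners were higher and 1 lower in knockdown minus empty vector, where 3.02% and 1.52% of all genes were. In overexpression minus scrambled shRNA 4 were higher and 1 lower, where 8.16% and 9.85% of all genes were. The medians of the 18 in these pairs were -0.08 and 0.08, against 0.01 and -0.01 over all genes.

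Among 8 measured NEK kinases and NEK3 partners, NEK4, another NIMA-related kinase, was the single call in knockdown minus scrambled shRNA. In that comparison 14.0% of all genes were called. NEK4 averaged 8.48 ± 0.05 in overexpression and 8.88 ± 0.11 in knockdown, against 9.08 ± 0.06 in empty vector and 8.34 ± 0.18 in scrambled shRNA arrays (SD, n = 3), the same direction as NEK3. It rose by 0.55 in knockdown against scrambled shRNA (SE 0.0882, adjusted p = 0.00164 by limma) and fell by 0.60 in overexpression against empty vector (adjusted p = 0.00171 by limma). No gene of the 8 was called by limma in the pairs, where 4.54% and 18.0% of all genes were. At an unadjusted p under 0.05 by limma stood 2 in knockdown minus empty vector, as did 2742 of all 11963 genes. In overexpression minus scrambled shRNA 2 did, as did 4025 of all genes. At the smallest p there, the adhesion adaptor PXN stood at 0.28 in knockdown minus empty vector (adjusted p = 0.0818 by limma).

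Of 5 measured zinc finger genes near the chromosome 10 centromere, the region of ZNF22, 3 were higher and 0 lower in knockdown than in scrambled shRNA. Of all genes, 8.79% and 5.22% were. In empty vector 5 were higher than in scrambled shRNA, where 15.3% of all genes were. ZNF32 followed ZNF22 over all 4 groups: it averaged 7.42 ± 0.12 in overexpression and 7.87 ± 0.06 in knockdown, against 7.79 ± 0.05 in empty vector and 7.46 ± 0.13 in scrambled shRNA arrays (SD, n = 3). ZNF32 rose by 0.42 in knockdown against scrambled shRNA (SE 0.0804, adjusted p = 0.00467 by limma) and fell by 0.37 in overexpression against empty vector (adjusted p = 0.0174 by limma), the second call ending without empty vector replicate 2 (-0.34) or overexpression replicate 2 (-0.31) or 3 (-0.37). ZNF239 rose by 0.36 and ZNF248 by 0.31 in knockdown against scrambled shRNA, the ZNF239 call ending without knockdown replicate 1 (0.30) or 3 (0.34) or scrambled shRNA replicate 2 (0.36). ZNF37A, a dim gene at a mean of 4.38, rose by 0.64 and ZNF248 by 0.40 in overexpression against scrambled shRNA (adjusted p = 0.00352 and 0.00337 by limma), a comparison in which ZNF22 stood at 0.15 and PTPN22 at 1.06. In empty vector minus scrambled shRNA ZNF37A stood at 0.58 and ZNF248 at 0.52.

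**Figure D5:**
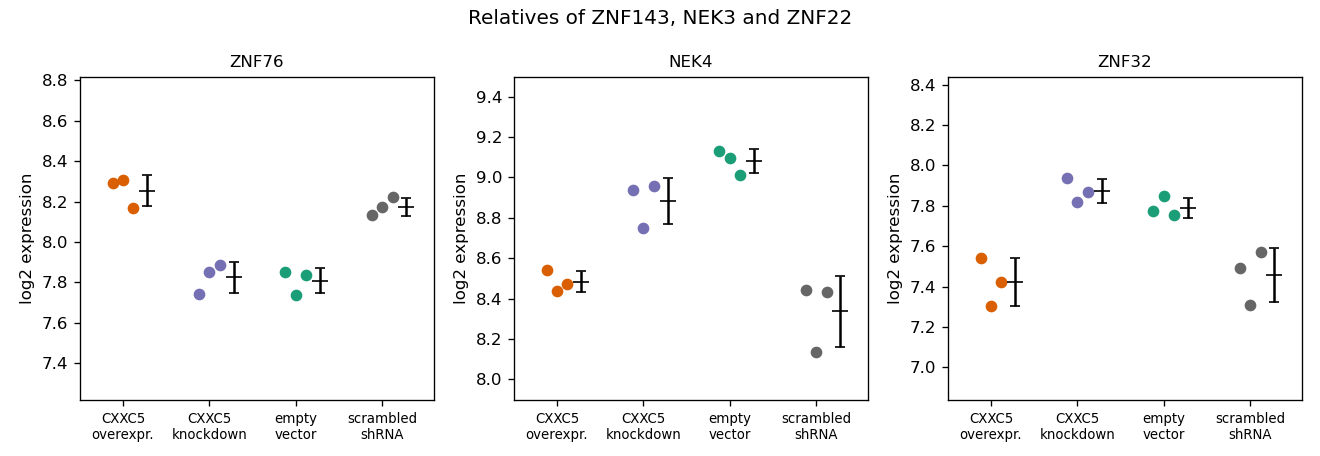
Log2 expression (y axis) of ZNF76, NEK4 and ZNF32 in overexpression, knockdown, empty vector and scrambled shRNA arrays (x axis); points are single arrays and bars the mean ± SD (n = 3). ZNF76 is low and NEK4 and ZNF32 are high in knockdown and empty vector.

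Of 17 measured genes of the cofilin cycle around SSH1, 1 was higher and 2 lower in knockdown than in scrambled shRNA, where 8.79% and 5.22% of all genes were. The actin depolymerising factor DSTN rose by 0.29 (adjusted p = 0.00778 by limma), the cofilin kinase TESK1 fell by 0.38 (adjusted p = 0.0107 by limma), and the relative SSH3 stood at -0.26, a call that ended under 9 of 21 alternatives. In overexpression minus scrambled shRNA the cofilin kinase LIMK2 stood at 0.33 (0.42 in empty vector minus scrambled shRNA), the kinase ROCK1, which acts upstream of LIMK, at -0.29 and the adaptor YWHAZ at -0.21; the YWHAZ call ended under 13 of 21 alternatives and its sign turned with the mean of all probe sets. The LIMK2 call ended without overexpression replicate 1 (0.26) or scrambled shRNA replicate 2 (0.29) and when its probe sets were averaged (0.11), and the second ROCK1 probe set stood at 0.20. In knockdown minus empty vector, where 4.54% of all genes were called, ROCK1 was the single call, at 0.28. It ended under 8 of 21 alternatives, and the second ROCK1 probe set had the other sign, -0.09.

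Among 18 substrates, partners and relatives of PTPN22, 4 were higher and 1 lower in overexpression than in scrambled shRNA, where 8.16% and 9.85% of all genes were. The tyrosine kinase SYK rose by 0.53 (SE 0.0736, adjusted p = 0.000855 by limma), with its second probe set at 0.55, and the phosphatase PTPN6 by 0.52 (adjusted p = 0.00468 by limma). Empty vector was higher than scrambled shRNA by nearly as much, 0.49 for SYK and 0.46 for PTPN6. Overexpression minus empty vector was 0.04 and 0.06, neither past the threshold. Scrambled shRNA was the lowest group for both, at 7.45 and 6.32, but knockdown was low too. It averaged 7.65 and 6.47, against 7.94 and 6.78 in empty vector and 7.98 and 6.84 in overexpression. Overexpression minus knockdown was 0.33 for SYK and 0.38 for PTPN6, the PTPN6 call ending under 3 of 21 alternatives. PTPN2 stood at -0.43, and at -0.43 in empty vector minus scrambled shRNA, but in the first comparison its other probe sets stood at 0.38 and 0.08, so its direction is uncertain. In knockdown minus scrambled shRNA the Src family kinase FYN rose by 0.40 (adjusted p = 0.000916 by limma), with its other probe sets at 0.72 and 0.42. In empty vector minus scrambled shRNA FYN stood at 0.18, a call that ended under 10 of 21 alternatives, and its other probe sets at 0.86 and 0.40. Scrambled shRNA was lowest at each FYN probe set. At the one used, knockdown was highest, at 10.10, against 9.87 in empty vector, 9.83 in overexpression and 9.69 in scrambled shRNA. Overexpression minus knockdown was -0.27 there (adjusted p = 0.00991 by limma), and -0.10 and -0.12 at the other probe sets. PTPN1 stood at 0.22 in knockdown minus scrambled shRNA (0.39 in empty vector minus scrambled shRNA), a call that ended under 7 of 21 alternatives. In knockdown minus empty vector, where 4.54% of all genes were called, SYK was the single call, at -0.29. It ended under 12 of 21 alternatives, and the second SYK probe set stood at 0.03.

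Genes next to the members on the chromosomes were read for the same comparisons. Over the 24 nearest measured neighbours, the nearest pair on either side of each member in the RefSeq order, 2 were higher and 2 lower in knockdown than in scrambled shRNA, where 8.79% and 5.22% of all genes were. DEPP1, next to ZNF22 on chromosome 10, rose by 0.54 (adjusted p = 0.007 by limma), and ATP7B, next to NEK3 on chromosome 13, stood at 0.22, a call that ended under 13 of 21 alternatives. EHD3, near LBH on chromosome 2, fell by 0.34 (adjusted p = 0.0132 by limma; the call ended without knockdown replicate 1, at -0.30), and YPEL5, next to LBH, stood at -0.28, a call that ended under 9 of 21 alternatives. In empty vector minus scrambled shRNA 2 neighbours were higher and 4 lower, where 15.3% and 16.2% of all genes were. Around NEK3, at 1.07, ATP7B (0.27) and CKAP2 (0.23) were higher, and CCDC70 (-0.36) and CNMD (-0.66) lower. DAO, next to SSH1, stood at -0.60. CNMD (group means of 3.41 to 4.08), EHD3 (4.05 to 4.39), DAO (4.45 to 5.14) and CCDC70 (5.13 to 5.49) were dim. The CKAP2, DAO and CNMD calls ended under 4, 3 and 1 of the alternatives. Leaving out scrambled shRNA replicate 3 was among these for CKAP2 and CNMD. YPEL5 fell by 0.71 (adjusted p = 0.000108 by limma), the opposite of LBH at 0.89. No neighbour of ZNF143 or PTPN22 was called by limma in either of these comparisons. In knockdown minus empty vector 2 neighbours were higher and 0 lower, where 3.02% and 1.52% of all genes were. YPEL5 stood at 0.44, opposite in sign to its difference from scrambled shRNA, and DEPP1 at 0.45. These calls ended under 4 and 10 of 21 alternatives. In overexpression minus scrambled shRNA 2 were higher and 1 lower, where 8.16% and 9.85% of all genes were. Higher were GALNT14 near LBH at 0.43 and CORO1C next to SSH1 at 0.25, and lower was YPEL5 at -0.28. GALNT14 was dim, with group means of 4.82 to 5.25. The CORO1C and YPEL5 calls ended without scrambled shRNA replicate 3, at 0.19 and -0.30. So did those of YPEL5 and ATP7B in knockdown minus scrambled shRNA, at -0.29 and 0.17.

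Other genes had profiles like the members over the 12 arrays; the Pearson correlations below describe likeness among 1309 genes whose group means spanned at least 0.5 log2, and all points share the same arrays. CBX7 was most like ZNF143 (r = 0.979), followed by EHBP1L1 (r = 0.971) and ZBTB40 (r = 0.969). CBX7 averaged 7.53 in overexpression and 7.05 in knockdown, against 7.03 in empty vector and 7.54 in scrambled shRNA arrays. VPS54 (r = 0.987), DNMT3B (r = 0.979) and WDR7 (r = 0.978) were most like ZNF22, and VPS54 was also among the 3 nearest to LBH (r = 0.952), after DYNLL1 (r = 0.954) and before MOSPD1 (r = 0.95). DNMT3B, a DNA methyltransferase, was also near NEK3 (r = 0.971), between TMEM50B (r = 0.985) and RASGRP1 (r = 0.968). RASGRP1, a Ras activator of lymphocytes, averaged 5.58 in overexpression and 6.57 in knockdown, against 6.70 in empty vector and 5.65 in scrambled shRNA arrays, a difference between sides of 1.02. SLC35A3 (r = 0.978), POLR3B (r = 0.974) and KNOP1 (r = 0.966) were most like SSH1, and SLC25A12 (r = 0.978), ZMPSTE24 (r = 0.976) and CTCF (r = 0.973) most like PTPN22.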

How the data were processed

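Expression was measured in 12 arrays, 3 per group. The values deposited by the authors are log2 expression values per probe set, between 2.07 and 14.4; since no header names a scale, log2 was inferred from that range. Per the submitters' processing notes Affymetrix Expression Console was used; its version and summary method: not given in the sources used here. Of 22277 probe sets, 62 controls were left out; a platform table gave 19064 a single symbol, updated through RefSeq gene identifiers (GRCh38.p14, names and order only; promoter sequences come from RefSeq too). The probe set with the highest mean stood for each gene. limma 3.58.1 (R 4.3.3; lmFit, 1 coefficient per group over 12 arrays, eBayes) was fitted to all 11963 genes, two-sided, with Benjamini-Hochberg adjustment over all genes and a threshold of 0.05. In simulated knockdown minus empty vector data over 11963 genes, 22% of changes of 0.3 log2, 96% of 0.6 and 100% of 1 were recovered, with 8 of 11763 unchanged genes called. Overexpression minus scrambled shRNA was planned as a test and is given for members without p. Members and lists were chosen with earlier results of these data known. Named were all members, the 3 genes most like each, the neighbours, and per list the 3 largest called differences in the pairs and in knockdown minus scrambled shRNA, or the smallest p. Replicates of a group correlated at 0.996 to 0.998, and 0 pairs were identical. For arrays, precision is limited by their number. Figures were drawn with matplotlib 3.10.9.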

Additional observations from a re-analysis of the deposited data

How the results depend on the processing

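The members' tested differences were refitted after quantile normalization or median centring, after removing the dimmest 40% of genes, with probe sets averaged or kept apart, with only the 6 arrays compared, with array weights, with a trended robust prior, with a replicate block, at stricter or looser thresholds, and leaving out each array. In knockdown minus empty vector the count of 1 member became 0 with the filter (which removed PTPN22), with only 6 arrays and at an adjusted p under 0.01, and was 0 to 1 without single arrays; PTPN22 itself kept its sign throughout, at -0.49 to -0.27, with adjusted p from 0.00842 to 0.138. In overexpression minus scrambled shRNA, a description, the count of 3 ranged from 2 to 4; PTPN22 and SSH1 passed in all 20 and 21 alternatives and LBH in 16 of 21. With probe sets averaged ZNF22 stood at 0.27 there, ZNF22 and NEK3 turned to -0.03 and -0.11 in knockdown minus empty vector, and NEK3 to -0.05 in overexpression minus scrambled shRNA. With the mean of all probe sets the difference between sides shrank to -0.58 for ZNF143 and 0.40 for PTPN22, since dim probe sets enter that mean. That setting also turned PTPN2 to 0.0097 in overexpression minus scrambled shRNA and 0.15 in empty vector minus scrambled shRNA, and YWHAZ to 0.11 in overexpression minus scrambled shRNA. Same-numbered replicates showed no steady pairing, with correlations of their deviations over the 6 pairs of groups of -0.12 to 0.39. They were under 0.1 for replicate 2 in each pair. For replicates 1 and 3 they were positive in each, at 0.05 to 0.39 and 0.04 to 0.33, so a partial pairing by number is not excluded. Knockdown with empty vector gave -0.12 to 0.15, and overexpression with knockdown 0.01 to 0.39. With the replicate block the counts stayed at 1 and 3, and PTPN22 in knockdown minus empty vector had an adjusted p = 0.0185. No detection calls were used here, so it is not known which dim probe sets were above background.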
